A study of Oryctolagus cuniculus with 24 samples.

Results

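The genes described here are chaperones of the HSP, DNAJ and CCT families, most of them cytosolic or mitochondrial, with the BAG cochaperones. They were taken by name from the deposited table of gene counts: rows named HSP90A, HSPA, HSPB, HSPD1, HSPE1, HSPH1, DNAJA, DNAJB, DNAJC, CCT2 to CCT8, TCP1 or BAG1 to BAG6. HSPA5, DNAJB9, DNAJB11 and DNAJC3, which work in the endoplasmic reticulum, were left out of the set, though other members, such as DNAJC10, also work there. This gave 80 of the 23428 genes in the table. The rule used gene names only, but it was set with earlier results of these data known. Counts were high enough to test 68 of the 80 members, among 13308 genes tested in all. RNA was sequenced from first-passage primary rabbit corneal keratocytes, the quiescent cells of the corneal stroma, in 3 groups of 8 libraries. All cells were plated on collagen-coated glass in serum-free medium and kept for 6 days, with new medium on day 1 and day 3. The serum-free group received serum-free medium at both changes and is labelled keratocyte. The TGF-β1 group received serum-free medium with 5 ng/mL transforming growth factor β1 at both changes and is labelled myofibroblast. The FBS group received serum-free medium on day 1 and DMEM with 10% fetal bovine serum on day 3, and is labelled fibroblast. The FBS group may therefore differ from both others in base medium as well as in serum. Its agent was present for fewer days than TGF-β1, so the comparison of the treated groups is not one of agents alone.

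Molecular chaperones bind proteins that are not yet folded, or have lost their fold, and help them reach or regain it. HSP70 proteins bind and release short exposed stretches in a cycle driven by ATP, J-proteins (DNAJ) bring them clients and start the ATP hydrolysis, and HSP110 and BAG proteins exchange the nucleotide. HSP90 acts later, on kinases, receptors and other clients that are nearly folded, while HSPD1 with HSPE1 (mitochondria) and the CCT ring, also called TRiC (cytosol), enclose a client in a chamber. Small HSPs hold unfolded proteins without using ATP. Actin and tubulin are the best known clients of the CCT ring, and keratocytes that are activated by serum or TGF-β1 build a contractile actin cytoskeleton.

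Libraries held 17151397 to 21540864 counts in the serum-free group, 15410285 to 20911192 with TGF-β1 and 15659561 to 22528261 with FBS. The 4 keratocyte markers found of 5 listed summed to 21059 to 27640 CPM (counts scaled to library size) in serum-free libraries, 5769 to 9843 with TGF-β1 and 803 to 1802 with FBS, and the largest corneal epithelial sum in any library was 1.24 CPM. The 5 leukocyte markers summed to 14.0 to 42.4 CPM, 32.8 to 49.9 and 66.6 to 74.8 CPM in the same order, nearly all of it LCP1 and CD68, while PTPRC and TYROBP averaged below 0.15 CPM in every group. Schwann cell and glial markers summed to 10.5 to 16.5, 2.15 to 5.39 and 1.38 to 3.11 CPM and corneal endothelial markers to 244 to 553, 46.0 to 157 and 26.2 to 61.1 CPM. The part of other cell types in the changes below was not tested. The labels number the libraries of each group 5 to 12 and do not say what the numbers stand for. Numbers 5 to 8 (replicates 1 to 4, set 1) and 9 to 12 (replicates 5 to 8, set 2) stood apart in all 3 groups. Among the 68 members the sets did not overlap within the serum-free group for 39.7%, within the TGF-β1 group for 41.2% and within the FBS group for 57.4%, beside 37.1%, 33.0% and 43.2% of all genes tested. Each set holds 4 libraries of each group, and changes within a set are given below where they differ. Whether the 8 replicates of a group were grown from different animals or dishes is not in the labels, so the p-values measure only the spread between these libraries, which may be technical.

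The 80 members together took a larger share of the counts with FBS than in the other groups. Their share was 0.477 to 0.549% in serum-free libraries, 0.575 to 0.635% with TGF-β1 and 1.70 to 2.03% with FBS, and the 3 ranges do not overlap. Summed per gene length (FPKM, fragments per kilobase of gene and per unit of library size), the members reached 2164 to 2477 in serum-free libraries, 2943 to 3337 with TGF-β1 and 6361 to 7310.0 with FBS. The mean sum was 1.33 times the serum-free mean with TGF-β1 and 2.95 times with FBS. In bulk RNA, a change in the share of a cell type and a change of RNA per cell cannot be told apart.

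Families differed in how far they moved. With FBS the summed FPKM was 6.59 times the serum-free mean for HSPD1 and HSPE1, 4.56 times for HSP90, 4.26 times for the CCT subunits and 3.96 times for HSP70. It was 2.56 times for HSP110, 2.16 times for DNAJA, 1.54 times for BAG and 1.42 times for DNAJC. The DNAJB sum lay lower, at 0.771 times, and the small HSP sum overlapped between the groups at 1.06 times. With TGF-β1 the ratios were narrower, from 1.06 for DNAJC to 1.66 for HSPD1 and HSPE1. The plot of family sums shows every library, with the FBS libraries far above both others for HSP90, HSP70, CCT and the HSPD1 and HSPE1 pair. They also lay above both others for HSP110, DNAJA, DNAJC and BAG, and below both for DNAJB.

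**Figure D1:**
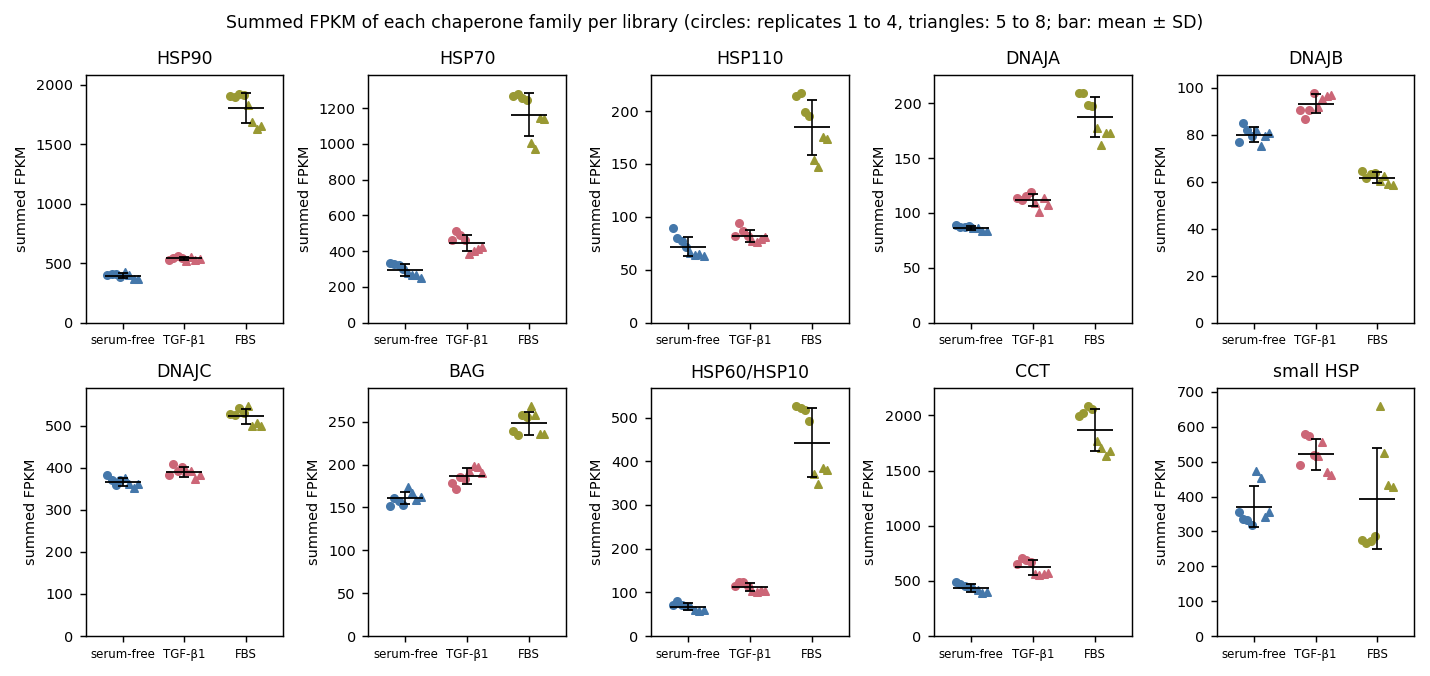
Summed FPKM of each of the 10 chaperone families (vertical axes, from 0) in each of the 24 libraries by group, with circles for replicates 1 to 4, triangles for replicates 5 to 8 and bars for the mean ± SD of 8 libraries. FBS libraries lie above all others for HSP90, HSP70, HSP110, DNAJA, DNAJC, BAG, the CCT ring and the HSPD1 and HSPE1 pair, and below all others for DNAJB.

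Changes were tested with edgeR's quasi-likelihood test, and a gene is called at an adjusted p (Benjamini-Hochberg over all genes tested) under 0.05. Between TGF-β1 and serum-free libraries, 33 members were called higher and 10 lower, beside 31.2% and 33.1% of all genes tested. That is 43 of 68 members, near the 64.3% of all genes called in either direction. The median log2 change of the members was 0.21, and that of all genes -0.03. Only 4 members rose and 1 fell at least 2-fold, beside 10.9% and 15.2% of all genes. The groups did not overlap for 18 members that lay higher and 2 that lay lower, beside 17.3% and 16.5% of all genes (33.9% in either direction). Within each set of library numbers, 33 of the 43 calls were made again in the same direction, with medians of 0.23 and 0.24. The sets are parts of the same libraries that gave the calls, so here and below this is no independent repeat. The same share over all called genes is not given here.

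Between FBS and serum-free libraries, 47 members were called higher and 12 lower, beside 39.5% and 40.5% of all genes and 80.0% in either direction. The median log2 change was 0.89 for the members and -0.04 for all genes. At least 2-fold, 32 members rose and 6 fell, beside 22.3% and 24.2% of all genes. No library overlapped for 42 members that lay higher and 7 that lay lower, beside 27.2% and 25.7% of all genes (52.9% in either direction). Within each set of library numbers, 57 of the 59 calls were made again in the same direction, and the medians were 0.82 and 0.90.

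Between TGF-β1 and FBS libraries, 12 members were higher with TGF-β1 and 44 lower, beside 36.9% and 36.4% of all genes and 73.3% in either direction. The median was -0.59 for the members and 0.01 for all genes. At least 2-fold, 5 members were higher with TGF-β1 and 26 lower, beside 18.5% and 17.6%. Libraries did not overlap for 6 and 36 members, beside 22.4% and 23.8% of all genes (46.2% in either direction). Of the 56 calls, 54 were made again within each set, with medians of -0.65 and -0.67. All 3 comparisons share groups, so their counts are not independent of each other. Under scaling by total counts alone the median log2 change of all genes was -0.17, 0.21 and -0.39 in the 3 comparisons. Calls under that scaling were 27 higher and 13 lower, 52 and 9, and 5 and 51, and the share of called members higher with TGF-β1 than with FBS went from 21.4% to 8.93%. A term for the difference of a change between the 2 sets of library numbers passed for 8, 9 and 9 members, beside 10.3%, 22.4% and 23.9% of all genes. With the replicate number as a block the calls were 36 and 12, 47 and 12, and 14 and 45. The plot of changes by family shows how small most TGF-β1 changes were beside the FBS changes of the same members, both of which rest on the same serum-free libraries.

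**Figure D2:**
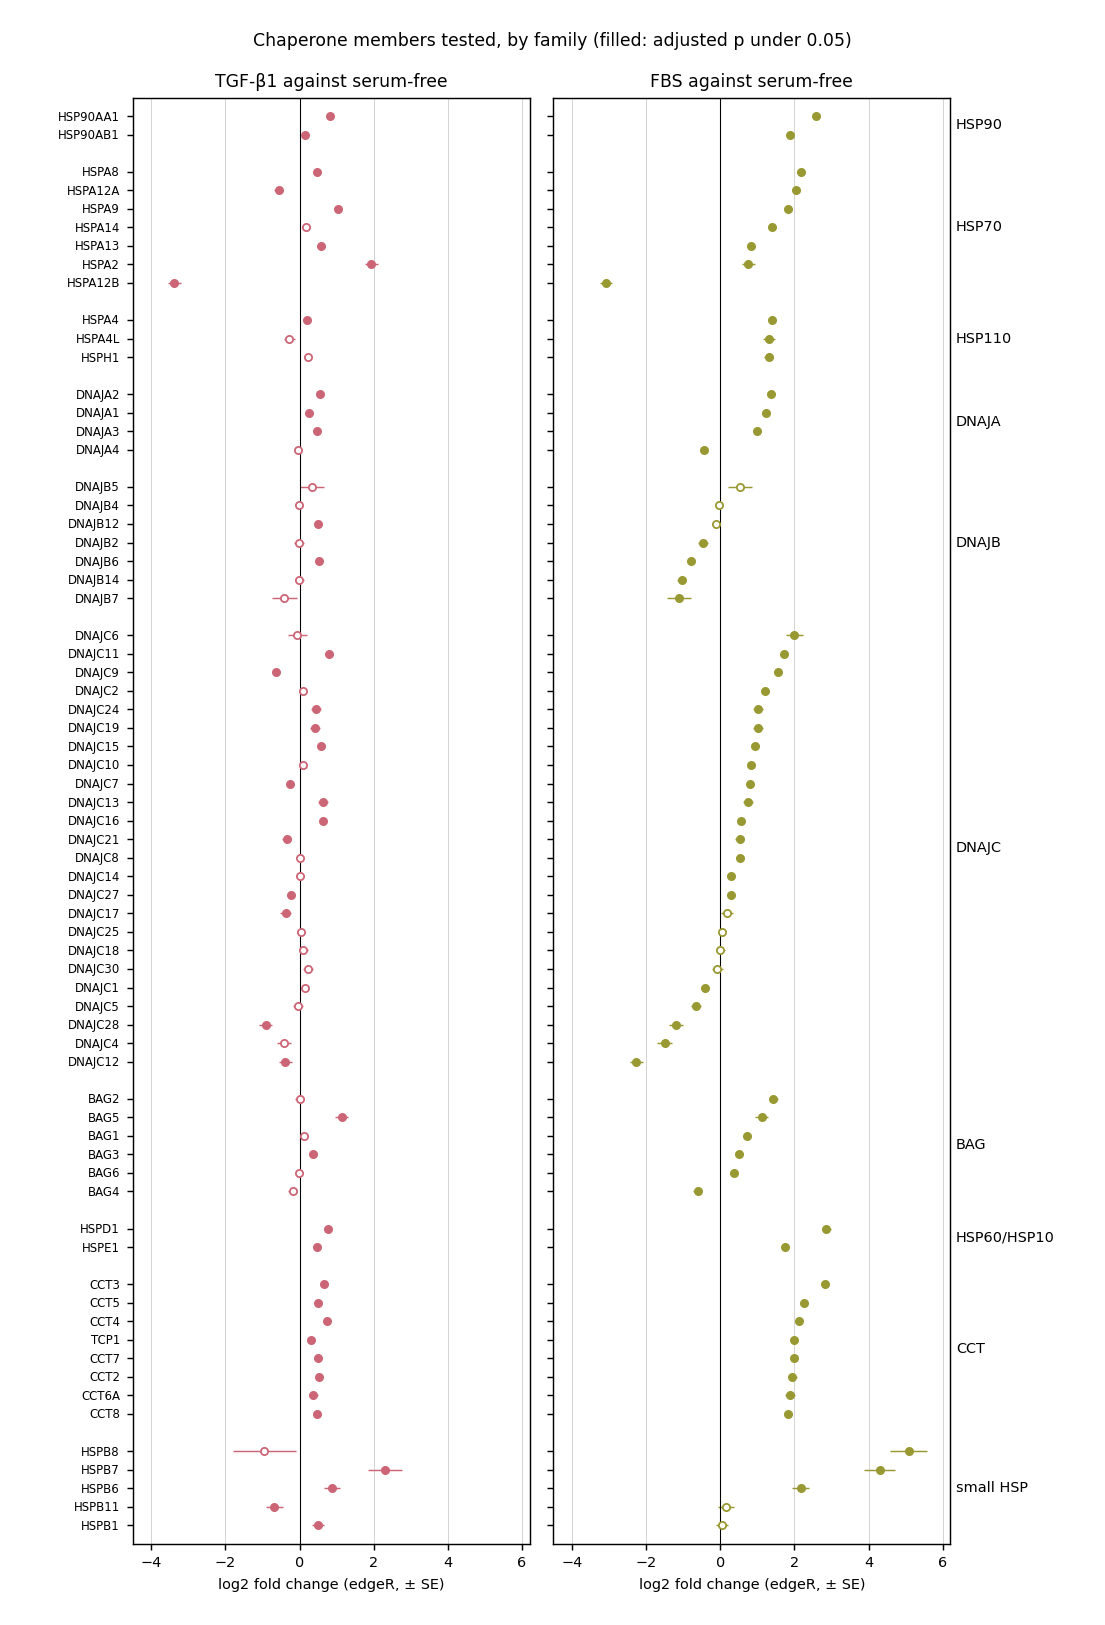
Log2 change of each of the 68 tested members by family (horizontal axes, ± SE) with TGF-β1 and with FBS, each against the serum-free group, with filled points for members called at an adjusted p under 0.05. Most members lie to the right with FBS. The DNAJB members lie near or left of 0, except DNAJB5, which was not called.

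Both cytosolic HSP90 genes rose with FBS, with the larger fitted change for HSP90AA1. HSP90AA1, the stress-inducible form, stood at 380.5, 422 and 479.7 CPM in serum-free libraries (here and below the lowest, median and highest library), at 718, 743 and 782 with TGF-β1 and at 2255, 2623 and 2752 with FBS. The 3 groups were wholly apart, in that order. The log2 change was 0.82 ± 0.06 (SE) with TGF-β1 (adjusted p = 2.49e-11) and 2.58 ± 0.07 with FBS (adjusted p = 1.78e-21), which is 5.98-fold. Set 1 gave 2.73 and set 2 2.43 for FBS, a difference that passed the test (adjusted p = 0.0103).

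HSP90AB1, the constitutive form, stood at 548, 595 and 649.5 CPM in serum-free libraries, 640.1, 657 and 699 with TGF-β1 and 1987, 2279 and 2321 with FBS. FBS libraries were far above all others, while the other groups overlapped. The log2 change was 1.88 ± 0.06 with FBS (adjusted p = 1.15e-19) and 0.16 ± 0.06 with TGF-β1 (adjusted p = 0.0248). The TGF-β1 call was lost without serum-free replicate 8 (adjusted p = 0.0532) and under total counts alone. Per length, HSP90AA1 was 0.510 to 0.671 times HSP90AB1 in serum-free libraries, 0.923 to 1.02 times with TGF-β1 and 0.953 to 1.04 times with FBS. The ratio of the FPKM values thus lay lower in every serum-free library than in any treated library.

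Among the HSP70 genes, HSPA8 and HSPA9 were the most abundant per length, and both rose in each treated group. HSPA8, the constitutive cytosolic HSP70, stood at 361, 436 and 536 CPM in serum-free libraries, 495, 608 and 765 with TGF-β1 and 1695, 2056 and 2194 with FBS. FBS libraries stood apart above the rest, and the serum-free and TGF-β1 ranges overlapped. Its log2 change was 0.46 ± 0.10 with TGF-β1 (adjusted p = 0.000298) and 2.18 ± 0.11 with FBS (adjusted p = 3.75e-16). HSPA9, the mitochondrial HSP70 that also pulls proteins through the inner membrane, stood at 155, 175 and 190.1, 314, 357 and 389 and 484, 627 and 712 CPM in the same order. No library of one group reached another group. Its log2 change was 1.03 ± 0.08 with TGF-β1 (adjusted p = 2.52e-11) and 1.83 ± 0.08 with FBS (adjusted p = 9.45e-17). The FBS change of HSPA9 was 2.06 in set 1 and 1.58 in set 2, and the sets differed (adjusted p = 0.000693).

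HSPA2, an HSP70 best known from the testis, was the HSP70 gene with the largest rise with TGF-β1. It stood at 7.34, 9.77 and 12.2 CPM in serum-free libraries, 24.1, 33.6 and 49.6 with TGF-β1 and 11.1, 16 and 20.7 with FBS. TGF-β1 libraries were above all others, and the FBS and serum-free ranges overlapped. The log2 change of HSPA2 was 1.93 ± 0.17 with TGF-β1 (adjusted p = 3.46e-10) and 0.75 ± 0.17 with FBS (adjusted p = 0.000281). HSPA2 was also 2.25-fold higher with TGF-β1 than with FBS (log2 change 1.17 ± 0.17, adjusted p = 7.6e-07). The TGF-β1 libraries of set 1 held 40.1 to 49.6 CPM and those of set 2 24.1 to 27.0 CPM. The change against serum-free was accordingly 2.44 in set 1 and 1.31 in set 2, with a difference that passed the test (adjusted p = 1.11e-05).

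HSPA12A and HSPA12B, distant relatives of HSP70, changed in opposite directions with FBS. HSPA12A stood at 4.79, 6.08 and 8.43 CPM in serum-free libraries, 3.47, 4.34 and 5.43 with TGF-β1 and 21.2, 27.9 and 29.1 with FBS, so that FBS libraries were above all others. HSPA12A changed by 2.05 ± 0.11 with FBS (adjusted p = 4.55e-15) and -0.56 ± 0.12 with TGF-β1 (adjusted p = 0.000139), the latter not called within set 1 (adjusted p = 0.1). HSPA12B, known from endothelial cells, stood at 18.4, 24.2 and 29.0, 1.32, 2.41 and 3.51 and 2.14, 2.72 and 4.07 CPM. Serum-free libraries were above every treated library. It fell by more than any other tested member with TGF-β1, at a log2 change of -3.37 ± 0.17 (adjusted p = 2.39e-15), and changed by -3.08 ± 0.16 with FBS (adjusted p = 1.92e-15).

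The summed vascular endothelial markers lay lower in both treated groups, as HSPA12B did. All 5 of the 5 listed were in the table, and their summed level was 246 to 368 CPM in serum-free libraries, 52.1 to 113 with TGF-β1 and 13.8 to 19.0 with FBS. Most of that sum was KDR, with means of 305, 72.9 and 13.5 CPM. CDH5 had means of 13.1, 6.09 and 1.93 CPM, while VWF and TEK were below 1 CPM on average in every group. PECAM1 went the other way, with means of 0.0652, 0.283 and 0.679 CPM. The corneal endothelial and the Schwann cell and glial sums given above also lay lower in both treated groups. Nearly all of the corneal endothelial sum was SLC4A4, with means of 397, 89.6 and 40.1 CPM. SLC4A11 went the other way with FBS, with means of 1.499, 0.823 and 6.93 CPM. ZP4 had no count in any library.

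The remaining tested HSP70 genes rose with FBS. HSPA13 changed by 0.58 ± 0.10 on the log2 scale with TGF-β1 and 0.82 ± 0.10 with FBS, and HSPA14, which works at the ribosome, changed by 1.39 ± 0.08 with FBS (adjusted p = 2.08e-05, 4.79e-08 and 2.8e-14). The stress-inducible HSP70 is not in the table under its own symbol. The deposited table describes 3 rows listed by number as HSPA1B, one of the copies of that gene. The highest of them stood at 9.02, 16.7 and 20.1 CPM in serum-free libraries, 4.54, 7.32 and 10.7 with TGF-β1 and 9.41, 10.1 and 14.9 with FBS, with overlapping groups. Unlike HSPA8 it was called lower with TGF-β1, at a log2 change of -1.07 ± 0.18 (adjusted p = 1.11e-05). It was also called lower with FBS (-0.48 ± 0.18, adjusted p = 0.0158), but not under total counts alone or within set 1. The other 2 rows overlap each other on the same strand, so their reads may be shared, and they had serum-free means of 3.07 and 1.70 CPM. They were called lower with FBS by -1.29 ± 0.29 and -1.46 ± 0.38 (adjusted p = 0.000228 and 0.00121), under all 36 alternatives. With TGF-β1 they changed by -1.30 ± 0.30 and -0.91 ± 0.38 (adjusted p = 0.000424 and 0.0393). The latter call was lost within each set, without the filter on low counts, and without any 1 of serum-free replicates 2, 5, 6, 7 and 8 or TGF-β1 replicates 1, 2, 3, 4 and 8 (adjusted p from 0.0508 to 0.0853). HSPA6, another stress-inducible HSP70, was too low to test, with at most 0.674 CPM in any library. The numbered rows are not among the 80 members. HSPA13 and HSPA14 are members, but like the numbered rows they were chosen for mention after their values were seen.

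The HSP110 genes, which release nucleotide from HSP70, all rose with FBS, beside 39.5% of all genes. HSPA4 stood at 170.4, 188 and 231 CPM in serum-free libraries, 215, 223 and 252 with TGF-β1 and 444, 519 and 593 with FBS, and HSPH1 at 83.9, 92.4 and 125, 96.1, 110.2 and 140.0 and 174, 236 and 296. For both genes FBS libraries lay above all others and the remaining groups overlapped. HSPA4 changed by 1.40 ± 0.08 with FBS (adjusted p = 3.35e-15), HSPH1 by 1.30 ± 0.11 (adjusted p = 6.58e-11) and HSPA4L, a relative named after its values were seen, by 1.31 ± 0.15 (adjusted p = 8.83e-09). With TGF-β1, HSPA4 changed by 0.20 ± 0.07 (adjusted p = 0.0212), a call lost under total counts alone and within set 1. HSPH1 had a log2 change of 0.23 ± 0.11 with TGF-β1 and did not pass (adjusted p = 0.0818). It passed with the replicate block (adjusted p = 0.00596), within each set of library numbers, and without serum-free replicate 1 (adjusted p = 0.0243), its highest serum-free library at 125 CPM. The plot of levels by library shows these patterns for 9 members, and the gap between the sets in HSPA2, HSPA9 and HSPD1.

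**Figure D3:**
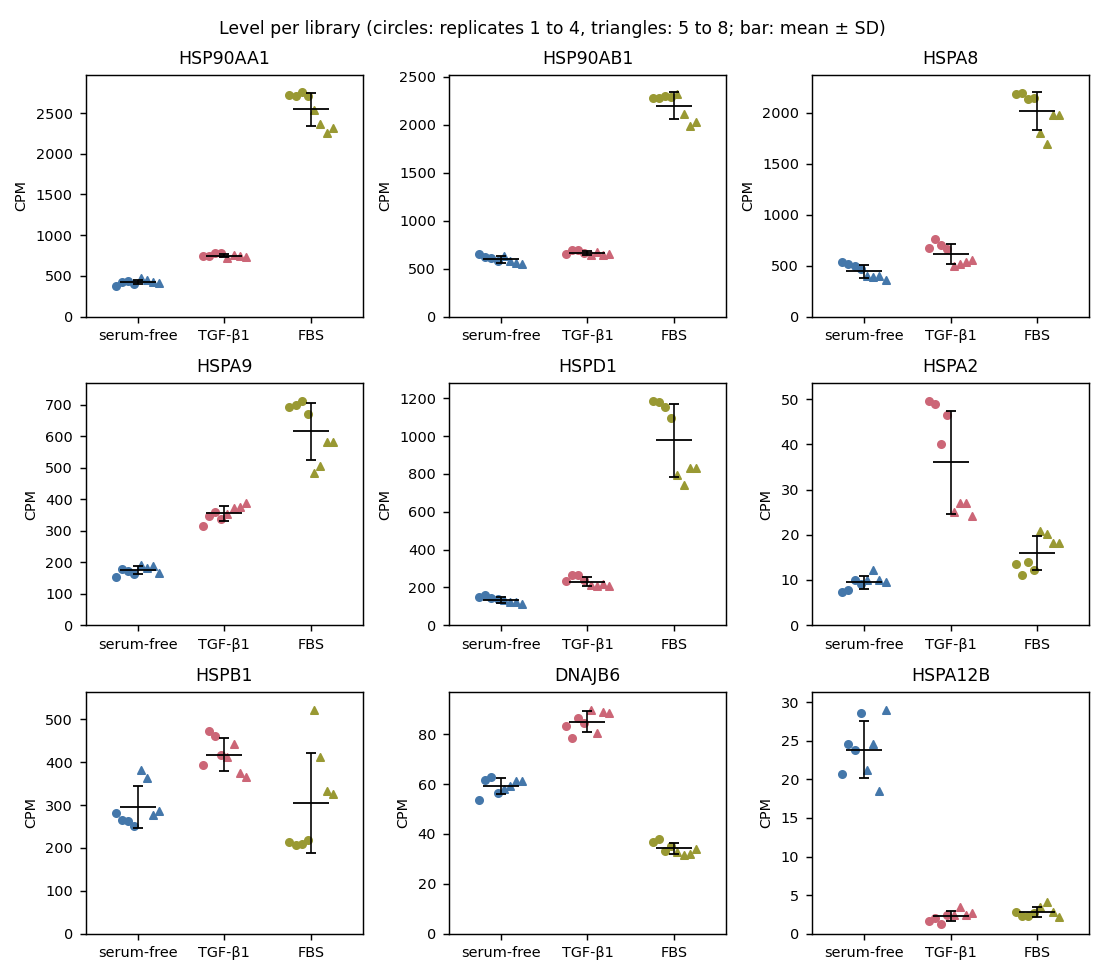
CPM of 9 members (vertical axes, from 0) in each of the 24 libraries by group, with circles for replicates 1 to 4, triangles for replicates 5 to 8 and bars for the mean ± SD. HSP90AA1, HSPA9, HSPD1 and DNAJB6 separate all 3 groups, and HSPA2 is highest with TGF-β1.

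J-proteins, the partners of HSP70, make up 41 of the 80 members, of which 35 could be tested. With TGF-β1 11 were called higher and 7 lower, and with FBS 18 and 10. That is 51.4% and 80.0% of the 35, beside 64.3% and 80.0% of all genes. The 3 subfamilies had different counts. Of 4 DNAJA genes, 3 rose with FBS and 1 fell. Of 7 DNAJB genes, none rose and 4 fell with FBS, whereas with TGF-β1 2 rose and none fell. Under total counts alone, the DNAJB counts for FBS were 2 higher and 3 lower. Of 24 DNAJC genes, 15 rose and 5 fell with FBS, and 6 rose and 7 fell with TGF-β1. For DNAJA, DNAJB and DNAJC, 100%, 57.1% and 83.3% were called with FBS, beside 80.0% of all genes (39.5% higher and 40.5% lower). With TGF-β1 the shares were 75%, 28.6% and 54.2%, beside 64.3% (31.2% higher and 33.1% lower).

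DNAJA1 and DNAJA2 are the general cytosolic partners of HSPA8, and DNAJA3 is the mitochondrial partner of HSPA9. DNAJA1 stood at 41.3, 48.3 and 54.0 CPM in serum-free libraries, 38.1, 61.1 and 67.0 with TGF-β1 and 85.0, 110.3 and 139 with FBS. Only the FBS libraries stood apart. Its log2 change was 1.22 ± 0.11 with FBS (adjusted p = 6e-11) and 0.25 ± 0.11 with TGF-β1 (adjusted p = 0.0434). The TGF-β1 call was lost without any 1 of serum-free replicates 2, 3, 5, 6 and 7 or TGF-β1 replicates 1, 2, 3, 4 and 7 (adjusted p from 0.0560 to 0.0859), under total counts alone, within set 2 and on the FPKM scale. DNAJA2 changed by 0.56 ± 0.06 and 1.38 ± 0.06 with TGF-β1 and FBS, and DNAJA3 by 0.47 ± 0.08 and 1.00 ± 0.08 (adjusted p at most 2.84e-05). These 2 genes and DNAJA4, which fell with FBS (-0.44 ± 0.10, adjusted p = 0.000288; not called under total counts alone), were chosen after their values were seen.

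DNAJB6, which keeps aggregation-prone proteins soluble, moved in opposite directions in the treated groups. It stood at 53.6, 60.2 and 62.7 CPM in serum-free libraries, 78.5, 85.4 and 89.8 with TGF-β1 and 31.8, 33.5 and 37.9 with FBS. All 3 groups were apart, with TGF-β1 on top and FBS at the bottom. The log2 change was 0.52 ± 0.06 with TGF-β1 (adjusted p = 7.9e-09) and -0.79 ± 0.06 with FBS (adjusted p = 8.57e-13), and TGF-β1 exceeded FBS by 1.31 ± 0.06 (adjusted p = 4.97e-17). A row listed by number that the table describes as DNAJB6 gave log2 changes of 0.59 and -0.30, the second not called under total counts alone.

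DNAJB12 and DNAJB14 sit in the membrane of the endoplasmic reticulum. DNAJB12 stood at 38.8, 59.4 and 71.2 CPM in serum-free libraries, 72.8, 83.1 and 92.0 with TGF-β1 and 44.1, 52.3 and 62.4 with FBS, with TGF-β1 above all others. It changed by 0.50 ± 0.10 with TGF-β1 (adjusted p = 0.000118) and did not pass with FBS (adjusted p = 0.309), except within set 2, at -0.22 (adjusted p = 0.0326). DNAJB14 stood at 77.0, 96.0 and 138, 81.5, 105 and 120.1 and 37.5, 48.3 and 60.4 CPM, with FBS below all others. It changed by -1.04 ± 0.12 with FBS (adjusted p = 9.99e-09) and did not pass with TGF-β1 (adjusted p = 0.981). DNAJB4, a cytosolic partner of HSP70, had medians of 41.2, 41.3 and 41.5 CPM and passed in no comparison (adjusted p = 0.971, 0.686 and 0.731), though under total counts alone it was called higher with FBS (0.22, adjusted p = 0.0295) and lower with TGF-β1 than with FBS (-0.36, adjusted p = 0.000868).

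DNAJC genes carry a J domain in otherwise unlike proteins, and the group moved in both directions. DNAJC11, a partner of the mitochondrial cristae organising complex, stood at 30.8, 38.1 and 41.8 CPM in serum-free libraries, 59.0, 64.0 and 73.8 with TGF-β1 and 104, 123 and 139 with FBS. The groups did not overlap. It changed by 0.80 ± 0.07 with TGF-β1 (adjusted p = 3.19e-10) and by 1.71 ± 0.07 with FBS (adjusted p = 2.75e-17). DNAJC9, which binds histones H3 and H4, stood at 27.8, 30.7 and 33.8, 17.3, 19.3 and 22.3 and 79.9, 90.8 and 101 CPM. Here too the groups were apart, with TGF-β1 lowest and FBS highest. DNAJC9 changed by -0.65 ± 0.07 with TGF-β1 (adjusted p = 1.15e-08), by 1.57 ± 0.07 with FBS (adjusted p = 7.24e-17) and was 4.64-fold lower with TGF-β1 than with FBS.

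DNAJC7, a J-protein that carries clients between HSP70 and HSP90, had the same order at smaller size. Its log2 change was -0.25 ± 0.07 with TGF-β1 (adjusted p = 0.00247) and 0.80 ± 0.07 with FBS (adjusted p = 3.42e-11). DNAJC10, which breaks disulfide bonds in the endoplasmic reticulum, changed by 0.82 ± 0.10 with FBS (adjusted p = 1.44e-08) and did not pass with TGF-β1 (adjusted p = 0.388). DNAJC21, which acts in ribosome assembly, changed by -0.35 ± 0.12 with TGF-β1 (adjusted p = 0.0101) and 0.52 ± 0.11 with FBS (adjusted p = 0.000169), the FBS call being absent within set 2. Of genes named after their values were seen, DNAJC2, a ribosome-bound J-protein, changed by 1.21 ± 0.11 with FBS (adjusted p = 1.24e-10). DNAJC6, the auxilin that uncoats clathrin vesicles, changed by 2.00 ± 0.24 with FBS (adjusted p = 2.21e-08) from a median of 1.09 to 4.38 CPM. DNAJC13, an endosomal J-protein, and DNAJC15, of the mitochondrial inner membrane, changed by 0.64 ± 0.13 and 0.57 ± 0.08 with TGF-β1 and 0.74 ± 0.13 and 0.95 ± 0.08 with FBS (adjusted p at most 0.000134).

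The J-proteins that fell with FBS included DNAJC12, DNAJC4 and DNAJC28. DNAJC12, a partner of aromatic amino acid hydroxylases, stood at 7.03, 8.77 and 11.8 CPM in serum-free libraries, 5.84, 6.73 and 8.51 with TGF-β1 and 0.998, 1.76 and 3.12 with FBS. FBS libraries were below all others. Its log2 change with FBS was -2.26 ± 0.18 (adjusted p = 7.37e-12). With TGF-β1 it was -0.38 ± 0.17 (adjusted p = 0.0476), a call lost in 15 of the 24 fits that left out 1 library (adjusted p from 0.0501 to 0.113), within each set and without the filter on low counts. The libraries were serum-free replicates 3, 4, 5, 6 and 8, TGF-β1 replicates 1, 2, 3, 4, 6 and 7, and FBS replicates 1, 2, 3 and 5.

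DNAJC4 stood at 22.1, 32.6 and 41.4, 17.2, 23.8 and 32.0 and 6.65, 9.63 and 18.1 CPM, with FBS below every serum-free library. It changed by -1.50 ± 0.20 with FBS (adjusted p = 1.13e-07). With TGF-β1 the change of -0.43 ± 0.19 missed the threshold (adjusted p = 0.0537), and passed with the replicate block (adjusted p = 0.000516) and in 9 fits that left out 1 library (adjusted p from 0.0308 to 0.0498). The libraries were serum-free replicates 1, 2 and 3, TGF-β1 replicates 5 and 6, and FBS replicates 1, 2, 5 and 6. DNAJC28 changed by -0.91 ± 0.18 with TGF-β1 (adjusted p = 8.14e-05) and -1.20 ± 0.18 with FBS (adjusted p = 9.74e-07). DNAJC5, the cysteine string protein of secretory vesicles, changed by -0.66 ± 0.13 with FBS (adjusted p = 4.42e-05), and DNAJC1, of the endoplasmic reticulum, by -0.41 ± 0.08 (adjusted p = 4.75e-05), the latter not called under total counts alone. DNAJC17, a nuclear J-protein with an RNA-binding motif, had a log2 change of -0.38 ± 0.16 with TGF-β1 (adjusted p = 0.0393). That call was lost without any 1 of serum-free replicates 5, 7 and 8 or TGF-β1 replicates 1, 2, 3, 4 and 8 (adjusted p from 0.0506 to 0.104), within each set and without the filter.

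The BAG proteins bind HSP70 and hand its clients on, BAG1 toward the proteasome and BAG3 toward autophagy. With FBS 5 of 6 rose and BAG4 fell, beside 39.5% and 40.5% of all genes. With TGF-β1 BAG3 and BAG5 rose. That is 100% called with FBS and 33.3% with TGF-β1, beside 80.0% and 64.3% of all genes. BAG3 stood at 58.1, 68.5 and 79.1 CPM in serum-free libraries, 77.8, 89.9 and 95.8 with TGF-β1 and 86.3, 95.7 and 113 with FBS. FBS libraries were above all serum-free libraries and overlapped with TGF-β1. BAG3 changed by 0.35 ± 0.08 (adjusted p = 0.00024) and 0.50 ± 0.08 (adjusted p = 1.31e-06). The treated groups differed by -0.15 ± 0.08 (adjusted p = 0.0843), which passed with the replicate block (adjusted p = 0.0187) and without serum-free replicate 5 or FBS replicate 1 (adjusted p from 0.0405 to 0.0485).

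BAG5, which holds several BAG domains, had the largest BAG change with TGF-β1. It stood at 14.0, 21.2 and 31.8 CPM in serum-free libraries, 34.2, 48.6 and 58.8 with TGF-β1 and 36.9, 45.1 and 62.9 with FBS. Both treated groups were above every serum-free library and overlapped with each other. Its log2 change was 1.14 ± 0.17 with TGF-β1 (adjusted p = 2.62e-06) and 1.12 ± 0.17 with FBS (adjusted p = 1.71e-06). Serum-free libraries of set 1 held 14.0 to 15.6 CPM and those of set 2 26.7 to 31.8, and the change with FBS was 1.47 in set 1 and 0.91 in set 2 (adjusted p of the difference = 0.00923). BAG1 changed by 0.71 ± 0.06 with FBS (adjusted p = 1.05e-10). Its TGF-β1 change of 0.13 ± 0.06 did not pass (adjusted p = 0.0775). It passed with the replicate block (adjusted p = 0.0378), without serum-free replicate 5 (adjusted p = 0.0442) and without FBS replicates 5 and 6 together. BAG4, which blocks death receptor signalling, changed by -0.61 ± 0.13 with FBS (adjusted p = 0.000108). BAG2 and BAG6, chosen after their values were seen, changed by 1.43 ± 0.12 and 0.37 ± 0.06 with FBS (adjusted p = 5.71e-11 and 4.94e-06).

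HSPD1, the barrel of the mitochondrial chaperonin, had the largest rise with FBS of any member with a mean of at least 5 CPM. It stood at 113, 135 and 160.2 CPM in serum-free libraries, 207, 225 and 265 with TGF-β1 and 744, 965 and 1186 with FBS. The 3 groups were apart. It changed by 0.78 ± 0.11 with TGF-β1 (adjusted p = 5.06e-07) and by 2.86 ± 0.11 with FBS (adjusted p = 4.64e-18), which is 7.26-fold. FBS libraries of set 1 held 1097 to 1186 CPM and those of set 2 744 to 833, and the FBS change was 2.98 and 2.72 in the sets (adjusted p of the difference = 0.0419).

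The row named HSPE1, the lid of the chamber, needs care. The table describes it as MOB4, with a summed exon length of 4064 bases over a span of 48062 bases on chromosome 7 (137994333 to 138042394, plus strand), next to HSPD1 (137982509 to 137993822, minus strand). No source used here names the genome build of these coordinates. HSPE1 and MOB4 cannot be told apart in this row. It stood at 33.8, 45.6 and 53.6 CPM in serum-free libraries, 56, 63.7 and 74.0 with TGF-β1 and 128, 145 and 189.9 with FBS, with no overlap. The row changed by 0.47 ± 0.09 with TGF-β1 (adjusted p = 8.76e-05) and by 1.75 ± 0.10 with FBS (adjusted p = 3.75e-15). A separate row listed by number and described as HSPE1, 499 bases long without an intron, changed by 0.67 ± 0.13 and 2.35 ± 0.13 (adjusted p = 8.17e-05 and 1.06e-14). No ratio of HSPD1 to HSPE1 is given for this reason.

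All 8 subunits of the CCT ring rose in both treated groups, and more with FBS. Of all genes tested, 20.7% were called higher in both. The mean FPKM of the 8 subunits was 48.3 to 60.9 in serum-free libraries, 68.9 to 88.0 with TGF-β1 and 204 to 260 with FBS. The median log2 change was 0.50 with TGF-β1 and 1.99 with FBS, and between TGF-β1 and FBS it was -1.50. Every subunit was called in each comparison within both sets of library numbers. Under total counts alone the 8 FBS calls were made again and the TGF-β1 call of CCT6A was lost.

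CCT3 moved farthest with FBS. It stood at 67.0, 80.7 and 87.1 CPM in serum-free libraries, 117, 123 and 139.7 with TGF-β1 and 484, 569.6 and 617 with FBS, and the groups were apart. On the log2 scale CCT3 changed by 0.67 ± 0.07 with TGF-β1 (adjusted p = 2.93e-09) and 2.82 ± 0.07 with FBS (adjusted p = 1.03e-21), or 7.09-fold. CCT3 had the lowest FPKM of the 8 subunits in all 8 serum-free libraries, at a mean of 39.8 ± 3.77 (SD, n = 8). With FBS its mean FPKM was 282 ± 22, and it was the highest subunit in 4 libraries, with TCP1 highest in the other 4.

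TCP1, the first subunit described, stood at 120.1, 129.6 and 148 CPM in serum-free libraries, 148, 163 and 183 with TGF-β1 and 455, 521 and 583 with FBS. The groups did not overlap, with the TGF-β1 libraries just above the serum-free ones and the FBS libraries far above both. It changed by 0.32 ± 0.07 (adjusted p = 0.0003) and 2.00 ± 0.07 (adjusted p = 8.56e-19). CCT4 had the largest TGF-β1 change of the ring, 0.74 ± 0.08 (adjusted p = 9.26e-09), and changed by 2.11 ± 0.08 with FBS (adjusted p = 3.66e-18). The FBS changes of the other 5 subunits were 2.25 for CCT5, 1.98 for CCT7, 1.94 for CCT2, 1.89 for CCT6A and 1.82 for CCT8. Their TGF-β1 changes were 0.53 for CCT2, 0.50 for CCT5, 0.50 for CCT7, 0.48 for CCT8 and 0.37 for CCT6A. CCT6A had the least certain of these, at an adjusted p of 0.0124.

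A CCT ring holds 1 copy of each subunit in each of its layers, so the spread of the subunits was set out per length. The coefficient of variation of the FPKM of the 8 subunits was 17.1 to 24.4% in serum-free libraries, 13.0 to 22.7% with TGF-β1 and 10.7 to 26.5% with FBS. These ranges overlap. The plot of subunits shows CCT3 below the others without serum and among the highest with FBS. The low relatives CCT6B and CCT8L2 could not be tested and stayed at or below 0.450 CPM in every library.

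**Figure D4:**
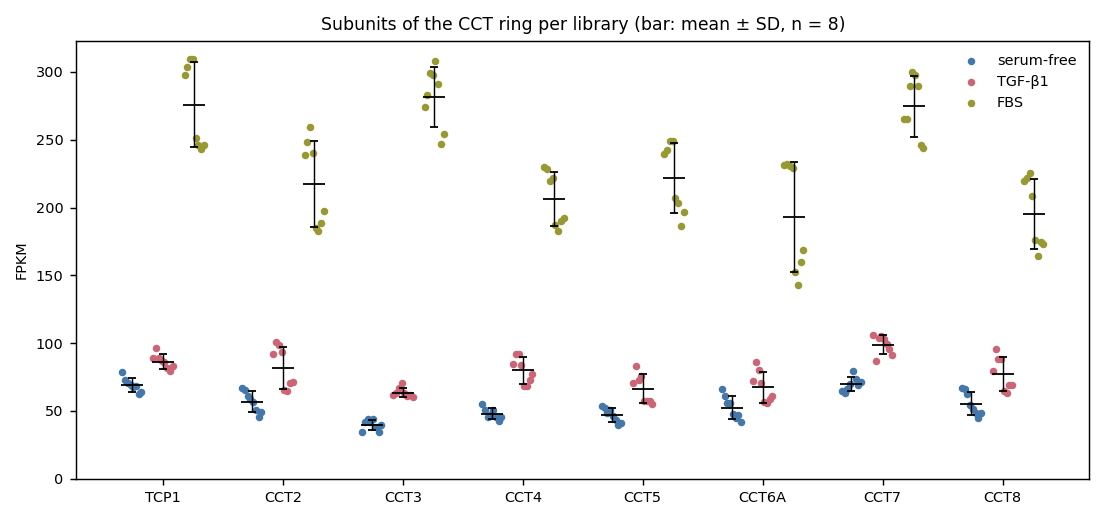
FPKM of the 8 CCT subunits (horizontal axis) in each library (points) by group, with bars for the mean ± SD of 8 libraries. CCT3 has the lowest serum-free mean of the ring and, with FBS, a mean of 282 FPKM, the highest of the 8.

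Cytoskeletal clients of the ring and the prefoldin complex, which delivers them, were read from lists outside the rule. Of 11 tested actin, actin-related and tubulin genes, 11 rose and none fell with FBS, beside 39.5% and 40.5% of all genes, and 5 rose and 3 fell with TGF-β1, beside 31.2% and 33.1%. ACTA2, the smooth muscle actin that marks myofibroblasts, changed by 6.29 ± 0.48 with TGF-β1 (adjusted p = 1.01e-11) and 7.35 ± 0.50 with FBS (adjusted p = 3.19e-13). The TGF-β1 libraries, labelled myofibroblast, held less ACTA2 on average than the FBS libraries (-1.05 ± 0.37, adjusted p = 0.0127). The ranges overlapped, at 115 to 403 CPM with TGF-β1 and 247 to 722 CPM with FBS. ACTG2 and TAGLN, chosen after their values were seen, lay the other way. ACTG2, the enteric smooth muscle actin, was higher with TGF-β1 than with FBS by 0.80 ± 0.28 (adjusted p = 0.0144; not called under total counts alone or within set 2). TAGLN, the other myofibroblast marker found, had means of 411 ± 136 CPM with TGF-β1 and 258 ± 75.1 CPM with FBS (SD, n = 8 each), with overlapping ranges. TUBA4A, an alpha tubulin, changed by -1.79 ± 0.26 with TGF-β1 (adjusted p = 1.13e-06) and 2.24 ± 0.25 with FBS (adjusted p = 5.09e-09). Of 9 prefoldin and cofactor genes, 4 rose and 1 fell with TGF-β1, and 7 rose and 2 fell with FBS. The 55.6% called with TGF-β1 stand beside 64.3% of all genes, and the 100% with FBS beside 80.0%. PFDN4 changed by 1.56 ± 0.20 and 2.21 ± 0.20 (adjusted p = 1.73e-07 and 1.51e-10).

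The small HSPs among the members did not move as a group. These members and their sum leave out CRYAB, a small HSP that the name rule misses and that is given with the related genes. Its mean FPKM with TGF-β1 was 635 ± 104 (SD, n = 8), above that of HSPB1. HSPB1, also known as HSP27, was the most abundant member per length in serum-free and TGF-β1 libraries, at mean FPKM of 362 ± 58.4 and 512 ± 45.8 (SD, n = 8 each), while HSP90AA1 led in FBS libraries at 905 ± 74.4. HSPB1 stood at 252, 278 and 381 CPM in serum-free libraries, 366, 414 and 472 with TGF-β1 and 206, 273 and 523 with FBS. All ranges overlapped. Its change with TGF-β1 was 0.50 ± 0.16 (adjusted p = 0.00893) and with FBS 0.04 ± 0.16 (adjusted p = 0.801). FBS libraries of set 1 held 206 to 219 CPM and those of set 2 327 to 523, so that the FBS change was -0.32 in set 1 and 0.29 in set 2, a difference that passed (adjusted p = 0.00897). The TGF-β1 change was 0.72 in set 1 and 0.29 in set 2 (adjusted p = 0.0932 within set 2), and was not called under total counts alone (adjusted p = 0.0629).

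HSPB6, a muscle-type small HSP, stood at 1.89, 3.59 and 6.25 CPM in serum-free libraries, 4.72, 6.71 and 7.87 with TGF-β1 and 9.90, 15.9 and 22.4 with FBS, with FBS above all others. It changed by 0.88 ± 0.22 with TGF-β1 (adjusted p = 0.00102) and 2.16 ± 0.22 with FBS (adjusted p = 9.22e-10). HSPB7 and HSPB8, known from heart and muscle, were near the lower limit without serum. HSPB7 held 14 counts summed over the 8 serum-free libraries, 62 with TGF-β1 and 349 with FBS, and HSPB8, the partner of BAG3, held 10, 4 and 433. In CPM, FBS libraries ran from 1.09 to 2.57 for HSPB7 and from 1.02 to 4.57 for HSPB8, above all others. Fitted log2 changes with FBS were 4.29 ± 0.42 for HSPB7 and 5.08 ± 0.50 for HSPB8. Both genes passed the filter on low counts through the FBS libraries, where they are high. Their calls with FBS, counted among the 47 members higher, were thus largely set by the filter, and no p-value is given. HSPB7 changed by 2.30 ± 0.47 with TGF-β1 (adjusted p = 0.000127), also from few counts. HSPB11, a ciliary transport protein that is chosen here after its values were seen, changed by -0.68 ± 0.22 with TGF-β1 (adjusted p = 0.0101), not called within set 2.

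Of all 68 tested members, 36 had group means in the order FBS, TGF-β1, serum-free from the top, and 11 had FBS, serum-free, TGF-β1. The reverse of the first order, with serum-free on top and FBS at the bottom, was found for 10. TGF-β1 was on top for 10, of which 5 had FBS second and 5 serum-free second. The last member had serum-free above FBS and TGF-β1 lowest. Both treatments were called higher than serum-free for 30 of the 68 members, beside 20.7% of all genes tested, among them all 8 CCT subunits, both HSP90 genes, HSPA8, HSPA9, HSPD1 and BAG3. The 12 members too low to test were DNAJC22, HSPB2, HSPA6, CCT6B, CCT8L2, DNAJB3, HSPB9, DNAJB13, HSPB3, DNAJC5B, DNAJB8 and DNAJC5G, and the last 2 had no count in any library.

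Related genes outside the rule were read from lists of the heat shock and folding pathways. Of 4 tested genes for heat shock factors and a factor-binding protein, only HSF1 rose with FBS and 3 fell (2 under total counts alone). With TGF-β1, 1 rose and 1 fell. That is 100% called with FBS and 50% with TGF-β1, beside 80.0% and 64.3% of all genes. HSF1, the factor that drives heat shock genes, stood at 25.6, 40.5 and 50.9 CPM in serum-free libraries, 43.3, 45.7 and 59.3 with TGF-β1 and 70.4, 76.1 and 103 with FBS, with FBS above all others. It changed by 1.05 ± 0.12 with FBS (adjusted p = 7.61e-09). With TGF-β1 its change of 0.28 ± 0.12 (adjusted p = 0.0364) was not called under 9 of the 36 alternatives. Of those, 6 left out 1 library, serum-free replicate 1, 2, 3 or 4 or TGF-β1 replicate 5 or 6, at adjusted p from 0.0590 to 0.0815.

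Of 22 tested cytosolic cochaperones of HSP70 and HSP90, 10 rose and 4 fell with TGF-β1, and 19 rose and 2 fell with FBS. That is 63.6% with TGF-β1, near the 64.3% of all genes, and 95.5% with FBS, beside 80.0%. Their median log2 changes were 0.16 and 1.23. FKBP5, a glucocorticoid-responsive HSP90 cochaperone, stood at 0, 0.223 and 0.682 CPM in serum-free libraries, 0.448, 2.96 and 6.23 with TGF-β1 and 13.6, 16.2 and 20.3 with FBS. It changed by 3.59 ± 0.57 with TGF-β1 (adjusted p = 5.35e-06) and 6.02 ± 0.56 with FBS (adjusted p = 2.07e-10). FKBP4, its relative in steroid receptor complexes, changed by -0.46 ± 0.09 with TGF-β1 (adjusted p = 7.06e-05) and 1.21 ± 0.09 with FBS (adjusted p = 2.41e-12). UNC45A, a myosin chaperone, was higher with TGF-β1 than with FBS, by 0.41 ± 0.11 (adjusted p = 0.00215), but not under total counts alone.

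Folding genes of other compartments were counted in the same way. Of 10 mitochondrial folding and protease genes, 8 rose and none fell with FBS, and 2 rose and 1 fell with TGF-β1. The 80% called with FBS equal the share of all genes, and the 30% with TGF-β1 stand beside 64.3%. TRAP1, the mitochondrial HSP90, changed by 1.24 ± 0.13 with FBS (adjusted p = 1.36e-09). Of 14 genes of the endoplasmic reticulum, 11 rose and none fell with TGF-β1, and 9 rose and 3 fell with FBS, which is 78.6% and 85.7% beside 64.3% and 80.0% of all genes. DNAJB9, a J-protein of that compartment left out of the member set, stood at 34.1, 41.5 and 51.5 CPM in serum-free libraries, 126, 148 and 152 with TGF-β1 and 31.1, 37.4 and 44.1 with FBS. TGF-β1 was above all others, at a log2 change of 1.76 ± 0.08 (adjusted p = 9.02e-16). SDF2L1, which works with HSPA5, changed by 0.86 ± 0.28 and 2.71 ± 0.28 (adjusted p = 0.00877, not called within set 2, and 1.94e-09). CRYAB, an alpha-crystallin, is itself a small HSP whose symbol lies outside the rule. It stood at 64.6, 81.2 and 90.1, 282, 349 and 419 and 125, 135 and 167 CPM, with all groups apart and TGF-β1 highest. It changed by 2.16 ± 0.10 with TGF-β1 (adjusted p = 4.96e-16) and 0.86 ± 0.10 with FBS (adjusted p = 8.05e-09).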

How the data were processed

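RNA of rabbit corneal keratocytes (24 libraries in 3 groups of 8) was extracted with a column kit and sequenced by a company, per the labels' protocols. The authors deposited a table of whole-number counts per gene and library, not normalized, and a table of FPKM values, which are counts per gene length and scaled library size, per the file headers and values. The aligner, counting program, strand setting, genome build and annotation are named in none of the sources used here. Gene symbols, coordinates and descriptions are those of the deposited count table, except that a RefSeq list of gene symbols was also used to name rows listed by number.

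Counts were fitted in R 4.3.3 with edgeR 4.0.16 over all 24 libraries, with 1 coefficient per group, TMM scaling and filterByExpr, which kept 13308 genes. The quasi-likelihood F-test was adjusted by Benjamini-Hochberg over all genes kept. CPM values use the TMM library sizes, and levels are compared between genes only in FPKM. The test was checked on simulated counts. Depth was 15410285 to 22528261 counts per library, so members below about 1 CPM rest on few counts. Summaries used Python 3.11.15, pandas 2.3.3 and numpy 2.4.6, and figures matplotlib 3.10.9.

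The members and the lists of related genes were chosen with earlier results of these data known. Named genes are, per comparison, the 8 called members that rose most and the 8 that fell most (mean of 5 CPM or more in the higher of the groups), a fixed set of well-known members, and up to 2 genes of each related list. Other genes are marked in the text as chosen after their values were seen.

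Replicate numbers are shared between the groups. Deviations from the group means of libraries with the same number correlated at 0.208 to 0.476 for TGF-β1 and serum-free, 0.143 to 0.547 for FBS and serum-free, and 0.149 to 0.440 for TGF-β1 and FBS. Every pair exceeded 0.1. The difference between the sets of library numbers was not taken out, so libraries of the same set can correlate whatever their number. The correlations therefore cannot show that the numbers pair the libraries. A fit with the replicate number as a block was made beside the unblocked one. No libraries of a group were alike within sampling noise (lowest chi-square per gene 2.80). FBS replicates 5 and 6 stood apart from FBS replicates 7 and 8 (chi-square per gene 45.0 to 71.8, and 6.63 between replicates 5 and 6).

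The alternatives were RLE scaling, total counts alone, DESeq2 1.42.0, no filter, limma 3.58.1 on log2(FPKM + 1) and log2(FPKM + 0.1), the 16 libraries compared, the block, the set as a covariate, each set alone, leaving out FBS replicates 5 and 6 together, and leaving out each library in turn. Genes searched for but not in the table under the names tried, such as STUB1, FKBP8 and TUBA1A, were not analysed here. Promoter and protein sequences were not used here.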

Additional observations from a re-analysis of the deposited data

Results flagged for a closer look

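In 3 of 125 groups of 8 libraries examined, over the named members and related genes, 1 library lay far from the other 7. Chance alone sets apart about 1 in 20 such groups. BAG4 was lowest in FBS replicate 5, at 3.91 CPM with the nearest FBS library at 7.14, a gap of 0.554 of the range. DNAJC21 was highest in TGF-β1 replicate 2, at 11.3 CPM with the nearest at 9.14, a gap of 0.577 of the range. HSPH1 was highest in serum-free replicate 1, at 125 CPM with the nearest at 102, a gap of 0.575 of the range. Without that library the change of HSPH1 with TGF-β1 passed the test (edgeR adjusted p = 0.0243).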

How the results depend on the processing

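Over 36 alternatives and all 3 comparisons, most values kept their direction and side of the threshold. With TGF-β1 against serum-free 2623 values did, 81 lost a call, 29 gained one and 37 changed sign. With FBS against serum-free the numbers were 3179, 9, 2 and 14, and for TGF-β1 against FBS 3051, 21, 9 and 15. Total counts alone gave 5 members higher with TGF-β1 than with FBS in place of 12, and 1 in place of 5 at least 2-fold higher. It also gave 2 members at least 2-fold higher with TGF-β1 in place of 4, 2 lower in place of 1, and 3 at least 2-fold lower with FBS in place of 6. Lower by at least 2-fold with TGF-β1 were 3 without the filter, which tests more genes, and 2 in set 1. FPKM + 1 gave 3 lower with FBS. For the other settings the cause was not tested.

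Blocking on the replicate number gave 36 members higher and 12 lower with TGF-β1, 47 and 12 with FBS, and 14 and 45 between TGF-β1 and FBS. The replicate block added the TGF-β1 calls of BAG1, HSPH1, HSPA14 (adjusted p = 0.0523 without it and 0.0203 with it), HSPA4L (0.105 and 0.0352) and DNAJC4. Between TGF-β1 and FBS it added BAG3, DNAJC30 (0.053 and 0.0107) and DNAJB7 (0.0669 and 0.013), and it changed no other call of a member. A library correlated best with its own number in 3, 4 and 3 of 8 pairs. Without FBS replicates 5 and 6 the counts were 36 and 12, 47 and 12, and 13 and 45.

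Changes of sign concern log2 changes that were not called with the main settings, except that of HSPB1 between TGF-β1 and FBS. Of the values with the other sign, 3 were called, namely HSPB1 with FBS in set 1 (adjusted p = 0.000179) and, under total counts, DNAJB4 with FBS (adjusted p = 0.0295) and between TGF-β1 and FBS (adjusted p = 0.000868). For TGF-β1 against serum-free, BAG1 was -0.013 under total counts. DNAJB14 was 0.021 without the filter, 0.011 with the block, 0.0097 with the set covariate, 0.12 in set 2, 0.012 with FPKM + 1, 0.014 with FPKM + 0.1, 0.0038 without FBS replicates 5 and 6 and -0.052 to 0.073 leaving out 1 library. DNAJB4 was 0.020 without the filter, 0.0027 with the set covariate, 0.11 in set 2, 0.0033 with FPKM + 1, 0.0038 with FPKM + 0.1, 0.0027 without FBS replicates 5 and 6 and -0.046 to 0.047 leaving out 1 library. DNAJC1 was -0.085 in set 1. DNAJC10 was -0.043 under total counts. DNAJC5 was 0.015 in set 1 and -0.073 to 0.0055 leaving out 1 library. For FBS against serum-free, DNAJB12 was 0.13 under total counts and 0.032 in set 1. DNAJB4 was 0.22 under total counts, 0.018 without the filter, 0.062 without FBS replicates 5 and 6 and -0.083 to 0.013 leaving out 1 library. DNAJC17 was -0.013 without FBS replicates 5 and 6. HSPB1 was -0.32 in set 1, -0.026 with FPKM + 1, -0.026 with FPKM + 0.1, -0.22 without FBS replicates 5 and 6 and -0.10 to 0.13 leaving out 1 library. For TGF-β1 against FBS, BAG5 was -0.37 under total counts, -0.012 without the filter, -0.019 in set 1 and -0.026 to 0.088 leaving out 1 library. DNAJB4 was -0.36 under total counts, -0.078 in set 1, -0.059 without FBS replicates 5 and 6 and -0.014 to 0.074 leaving out 1 library. DNAJC28 was -0.11 under total counts and -0.061 in set 2. HSPB1 was -0.0027 in set 2. The planned search for heat shock elements was not run, since no promoter sequences were used here.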

Other observations

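The table lists 19 rows by number that its description, or a RefSeq list of gene symbols, names as a chaperone of the rule, and 15 of them could be tested. They match 12 members, and 8 have no intron in the table. Such rows can be copies of the member or share its reads, so counts of the 12 members (BAG1, BAG4, DNAJA1, DNAJA3, DNAJB4, DNAJB6, DNAJC24, DNAJC8, HSP90AA1, HSPA8, HSPA9 and HSPE1) may be split. The row described as HSPA8 stood at 57.3, 66.7 and 74.9 CPM in serum-free libraries, 82.3, 90.1 and 107 with TGF-β1 and 282, 311 and 339.8 with FBS, with log2 changes of 0.50 ± 0.07 and 2.24 ± 0.07 (edgeR adjusted p = 6.86e-07 and 8.84e-20). The row described as HSP90AA1 changed by 0.98 ± 0.32 and 2.72 ± 0.32 (adjusted p = 0.01 and 2.07e-08), beside 0.82 and 2.58 for HSP90AA1 itself. The row described as DNAJA1 changed by 1.06 ± 0.16 with FBS (adjusted p = 1.75e-06). With TGF-β1 it did not pass (-0.04 ± 0.17, adjusted p = 0.839), whereas DNAJA1 itself was called. DNAJB1, HSPA1B and HSPA1L are in the table only as rows listed by number. With FBS the DNAJB1 row of higher level (serum-free mean 3.06 CPM) changed by -0.68 ± 0.53 (adjusted p = 0.239), and passed only within set 2. The other (0.709 CPM) changed by -1.05 ± 0.42 (adjusted p = 0.0227), a call lost under total counts alone and without serum-free replicate 5 or 7. With TGF-β1 neither passed in the main fit (adjusted p = 0.899 and 0.157). These rows were chosen after their values were seen.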
